A study of Homo sapiens with 12 samples.

Results

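The early response of MNNG/HOS cells to NXP800 was measured by comparing 3 RNA-seq libraries of cells given 300 nM NXP800 for 6 h with 3 libraries of cells given DMSO, the solvent, for 6 h. These are 6 of the 12 libraries of the study, whose other time point was 24 h, and the comparison covers all 43236 gene symbols counted in each library, of which 15979 had enough counts to be tested. MNNG/HOS, written HOS-MNNG in the sample labels, is a human osteosarcoma cell line derived from HOS by chemical transformation, and all libraries come from this line. NXP800 is an orally available small molecule that was developed against the pathway of the heat shock factor HSF1, and the study asked how it acts on osteosarcoma cells. Nothing in the labels says whether the 3 replicates of a group were separate cultures, so the p-values measure the spread between these libraries, which may be technical.

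The study relates NXP800 to the integrated stress response, in which a kinase such as GCN2 phosphorylates the translation factor eIF2α, general protein synthesis slows and the transcription factor ATF4 is made and turns on genes of amino acid supply. Stress signals of this kind reach further programs. Kinase cascades act on AP-1 factors and on NF-κB, which drive immediate-early genes, chemokines and growth factor ligands, and many of these genes encode inhibitors of the same cascades. mRNAs that turn over quickly can change within hours, whereas long-lived mRNAs of metabolism and the cytoskeleton tend to change slowly.

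The 6 libraries held 30810614 to 31394097 gene counts, so counting error was small for all but low genes. Reads on no annotated gene made up 6.66 to 8.14% at 6 h. The label of the line was checked against its markers. *VIM* (3910 to 4520 CPM, the gene's counts scaled to a common library total), *CD44* (570 to 683 CPM), *SPARC* (296 to 630 CPM) and *COL1A1* (150 to 265 CPM), genes of mesenchymal cells and bone matrix, were abundant in all 6 libraries, but *COL1A2* had 2 to 12 counts and *ALPL*, the bone alkaline phosphatase, 0 to 7 counts. Of 14 markers of other cell types, only *CD68* (62.7 to 78.4 CPM) and *EPCAM* (5.86 to 7.39 CPM) passed 1 CPM, and *HBB* and *MYH6* were among those at 0.

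NXP800 moved a large part of the transcriptome within 6 h. By edgeR's quasi-likelihood test, 8435 genes were called at a Benjamini-Hochberg adjusted p below 0.05 (52.8% of those tested), of which 4000 were higher (25%) and 4435 lower (27.8%), and these genes are the ones said below to have risen or fallen. The shares of 25% and 27.8% are the background for the list counts below, and a list near them differs little in its calls from all genes. Most changes were small. Of the tested genes, 962 rose over 2-fold (6.02%) and 835 fell over 2-fold (5.23%), and the median log2 fold change, NXP800 minus DMSO, was -0.046. Values of the 3 NXP800 libraries lay wholly above those of DMSO for 29.3% of the genes and wholly below for 32.7%. In bulk RNA, fewer cells that use a gene and less of its RNA per cell cannot be told apart, and CPM shows a gene's share of all mRNA and not its amount per cell.

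**Figure D1:**
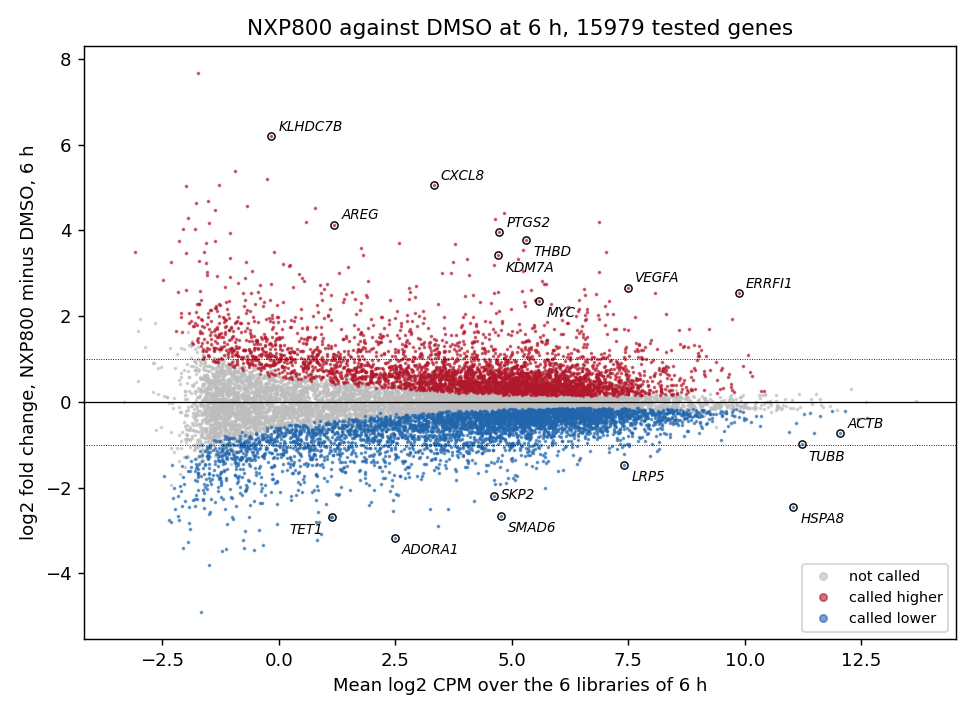
Mean log2 CPM over the 6 libraries (x axis) against the log2 fold change of NXP800 over DMSO at 6 h (y axis) for 15979 tested genes, coloured by call, with dotted lines at 2-fold. The called genes lie on both sides of 0 at every level, *CXCL8* stands at 5.05 and *ADORA1* at -3.18, and abundant genes such as *HSPA8*, *TUBB* and *ACTB* lie below 0.

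Among genes with a mean log2 CPM above 1, the largest rise was that of *CXCL8*, the neutrophil chemokine interleukin 8. It stood at 1.74, 1.54 and 1.85 CPM in the DMSO libraries and at 53.5, 74.0 and 43.0 CPM in the NXP800 libraries, a log2 fold change of 5.05 ± 0.25 (SE, as for all fold changes below; adjusted p = 2.38e-10). The groups did not overlap, and the lowest NXP800 library was far above the highest DMSO library. *PTGS2*, which encodes the prostaglandin synthase COX-2, went from 7.73, 5.93 and 6.56 CPM to 103, 128 and 83.4 CPM (log2 3.96 ± 0.18, adjusted p = 1.11e-10). *THBD*, the thrombin receptor thrombomodulin, went from 9.25, 11.4 and 11.8 CPM to 130, 188 and 128 CPM (log2 3.78 ± 0.28, adjusted p = 2.4e-08). In all 3 genes replicate 2 was the highest of the NXP800 libraries. Of the 32 genes listed as inflammatory chemokines, cytokines and feedback genes of NF-κB, 22 were tested, and 20 rose, 15 of them over 2-fold, with a median log2 fold change of 1.49. The other 2 fell: *CSF1*, the macrophage growth factor, from 18.6 to 22.3 CPM to 8.81 to 10.4 CPM (log2 -1.13), and *TNFAIP2* from 50.3 to 53.4 CPM to 30.8 to 32.4 CPM (log2 -0.72). Interferon-stimulated genes belong to another arm of innate immunity. Of 28 tested, 3 rose and 10 fell (median log2 -0.37), among them *IFIT1*, an antiviral RNA-binding protein (1.07 to 1.55 CPM in DMSO, 0.123 to 0.337 CPM in NXP800, log2 -2.69 ± 0.37), and *PARP9* (log2 -1.13 ± 0.21).

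Promoters of some genes of this group are shown because they hold binding motifs of AP-1 and NF-κB, with the match in capitals. They come from RefSeq (GRCh38.p14) and run up to the annotated start of the gene, 5′ to 3′ on the strand of the gene. *CXCL8* and *IL11*, a cytokine of the IL-6 family, hold the AP-1 motif TGACTCA or its reverse complement 137 and 96 bases before the start, and the neighbouring chemokine genes *CXCL1*, *CXCL2* and *CXCL3* hold a 10-base NF-κB motif 79, 78 and 79 bases before it. *IL11* and these 3 chemokine genes were chosen for their motifs after their values were seen. The window of *PTGS2* holds none of the 11 motifs searched. Only exact matches were searched, and *CXCL8* also holds tggaatttcc, which differs from the NF-κB motif shown in its first base.
CXCL8, chr4:73740409-73740568, + strand: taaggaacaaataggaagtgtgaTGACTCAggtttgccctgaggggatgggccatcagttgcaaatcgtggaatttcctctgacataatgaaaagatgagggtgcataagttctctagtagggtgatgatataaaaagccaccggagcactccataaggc
IL11, chr19:55370464-55370583, - strand: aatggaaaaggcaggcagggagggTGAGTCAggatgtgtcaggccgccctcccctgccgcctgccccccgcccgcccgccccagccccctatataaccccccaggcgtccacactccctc
CXCL1, chr4:73869293-73869392, + strand: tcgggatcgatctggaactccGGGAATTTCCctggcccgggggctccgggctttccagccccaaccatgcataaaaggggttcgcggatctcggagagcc
CXCL2, chr4:74099196-74099295, - strand: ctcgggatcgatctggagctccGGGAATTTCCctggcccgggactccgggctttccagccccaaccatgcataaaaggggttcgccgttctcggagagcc
CXCL3, chr4:74038690-74038789, - strand: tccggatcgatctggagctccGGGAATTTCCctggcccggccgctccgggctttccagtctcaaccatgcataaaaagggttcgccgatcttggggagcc

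The 3 chemokine promoters are related sequences, and 60 bases placed around the motif without gaps were 93.3% identical between *CXCL1* and *CXCL3*. Because their transcripts are also related, reads may have been split between them. *CXCL1* stood at 1.30, 1.23 and 1.37 CPM in DMSO and at 7.03, 7.96 and 5.56 CPM in NXP800 (log2 2.39 ± 0.26, adjusted p = 1.25e-06). *CXCL2* (log2 2.24 ± 0.36, adjusted p = 6.47e-05) and *CXCL3* (log2 1.89 ± 0.64, adjusted p = 0.0204) were lower in level and also higher under NXP800, but *CXCL3* had at most 0.243 CPM in DMSO and 0.614 CPM in NXP800. DESeq2 did not call it (adjusted p = 0.0548), and its call was also lost without replicate 1 or 2 of DMSO or without replicate 3 of NXP800, at an adjusted p of 0.0799, 0.0705 and 0.0609. *IL11* went from 38.7, 32.2 and 54.1 CPM to 378, 344 and 293 CPM (log2 3.02 ± 0.19, adjusted p = 3.51e-09).

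Motif counts over all promoters put these matches in context. Promoter windows of 250 bases before to 50 bases after the start were found for 12235 tested genes, and 11 motifs were searched on both strands. TGACTCA was held by 7.98% of the 702 promoters of genes that rose over 2-fold, 3.26% of the 613 of genes that fell over 2-fold, 3.51% of all tested and 4.92% of all 27305 promoters. The rarer NF-κB motif shown in *CXCL1* was in 7 promoters of genes that rose (0.997%) and in 2 of genes that fell (0.326%). It was in 0.213% of those tested and 0.161% of all. Among the 7 promoters of genes that rose are the related ones of *CXCL1*, *CXCL2* and *CXCL3*, which were chosen for this motif with their values known. The 7 matches are therefore not independent, and the share is not separate evidence for those chemokine genes. The motif of ATF4 with CEBP partners, TGATGCAA, was in 16 promoters of genes that rose (2.28%). It was also in 4 promoters of genes that fell (0.653%), in 0.523% of those tested and in 0.923% of all. TGACGTCA, the motif of CREB and ATF factors, was in 3.56% of the promoters of genes that rose, in 1.31% of those that fell, in 3.17% of those tested and in 1.98% of all. For the heat shock element the shares were 0.285% of genes that rose, 0.816% of genes that fell, 0.311% of those tested and 0.487% of all. The E-box CACGTG was in 8.12% of promoters of genes that rose, 8.16% of those that fell, 9.90% of those tested and 7.43% of all. The E2F motif TTTCCCGC was in 1.42%, 1.96%, 2.62% and 1.66% in the same order, and its variant TTTGGCGC in 0.427%, 0.816%, 1.06% and 0.659%. The longer antioxidant motif TGACTCAGC, which contains TGACTCA, was in 0.712%, 0.163%, 0.523% and 0.564%, and another NF-κB motif, the κB site of the immunoglobulin enhancer, in 0.142%, 0.163%, 0.180% and 0.194%. The carbohydrate response element, a pair of E-boxes 5 bases apart, was in none of the promoters of genes that changed over 2-fold and in 2 of all promoters. These shares are a description, since a match is not a bound site.

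Among receptor tyrosine kinases and their ligands, the 2 largest rises were those of ligands of the EGF receptor and the 2 largest falls those of receptors. *AREG*, amphiregulin, was low in DMSO at 0.475, 0.284 and 0.759 CPM and stood at 9.92, 9.61 and 7.46 CPM in NXP800 (log2 4.13 ± 0.33, adjusted p = 4.42e-08). *EREG*, epiregulin, a ligand of the same receptor encoded beside it, went from 22.1, 18.8 and 18.7 CPM to 128, 154 and 118 CPM (log2 2.75 ± 0.24, adjusted p = 1.08e-07). Of the 35 tested members of the list, 13 rose and 12 fell, with a median log2 fold change of 0.13 that was 0.00481 without replicate 3 and 0.0659 without replicate 1 of NXP800, 0.0771 without replicate 3 of DMSO and 0.281 when the 6 h libraries were fitted alone. The shares of this list, 37.1% higher and 34.3% lower, stand beside 25% and 27.8% over all tested genes. The 2 receptors with the largest falls were *KIT*, the stem cell factor receptor (2.10 to 2.82 CPM in DMSO, 0.553 to 0.704 CPM in NXP800, log2 -1.91 ± 0.21), and *FGFR3* (log2 -1.44 ± 0.32).

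Many inhibitors of growth factor signalling also rose. *ERRFI1*, a feedback inhibitor of the EGF receptor, went from 464, 352 and 355 CPM to 2592, 2352 and 1863 CPM (log2 2.54 ± 0.15, adjusted p = 2.11e-09), which was the largest gain in CPM among called genes. Of 18 tested dual-specificity phosphatases, which switch off MAP kinases, and Sprouty and Spred inhibitors of the RAS pathway, 11 rose and 3 fell (median log2 0.63). *DUSP1*, which acts on JNK and p38, went from 11.9, 8.80 and 11.3 CPM to 68.6, 50.1 and 39.3 CPM (log2 2.31 ± 0.19, adjusted p = 6.22e-08), and the low gene *DUSP8*, of the same specificity, from 0.252 to 0.570 CPM to 1.60 to 2.15 CPM (log2 2.25 ± 0.33). The inhibitors did not all rise, since *SPRY1* fell from 15.6 to 18.4 CPM to 7.61 to 8.29 CPM (log2 -1.06 ± 0.14) and *DUSP7*, a phosphatase of ERK, from 52.3 to 61.2 CPM to 26.2 to 36.4 CPM (log2 -0.90 ± 0.10). The promoters of *AREG*, *DUSP1* and *DUSP8* are shown for the full palindrome TGACGTCA of CREB and ATF factors, in capitals. *DUSP8* holds it at both 118 and 74 bases before its start. The stretch of *AREG* runs up to the start, and those of *DUSP1* and *DUSP8* end short of it.
AREG, chr4:74445036-74445135, + strand: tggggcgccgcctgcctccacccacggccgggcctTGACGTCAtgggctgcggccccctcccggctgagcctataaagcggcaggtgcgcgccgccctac
DUSP1, chr5:172771246-172771345, - strand: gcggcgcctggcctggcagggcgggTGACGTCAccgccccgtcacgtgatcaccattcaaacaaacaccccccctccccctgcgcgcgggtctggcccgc
DUSP8, chr11:1572312-1572411, - strand: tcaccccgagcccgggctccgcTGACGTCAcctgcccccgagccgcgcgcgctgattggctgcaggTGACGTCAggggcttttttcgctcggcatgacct

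Immediate-early genes, which respond to signals without new protein synthesis, shared this direction. Of 30 tested, 21 rose, 14 of them over 2-fold, and 4 fell (median log2 0.91). *KLF4*, a transcription factor of growth arrest and pluripotency, went from 15.3, 16.3 and 13.8 CPM to 105, 94.4 and 74.8 CPM (log2 2.59 ± 0.12, adjusted p = 1.05e-10), and *BTG1*, an antiproliferative gene, from 55.7 to 57.8 CPM to 214 to 262 CPM (log2 2.04 ± 0.08). KLF genes had the highest median of any symbol family with at least 10 tested members (log2 0.92, 11 of 15 higher). Among those that fell were *IER5L* (log2 -0.68 ± 0.13) and *ZFP36L2*, which promotes mRNA decay (log2 -0.54 ± 0.07), and 41.8% and 22.4% of their exon bases lie under an antisense gene.

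The MYC network moved at its activator and at an antagonist together. *MYC* went from 25.6, 17.8 and 20.9 CPM to 129, 114 and 87.2 CPM (log2 2.36 ± 0.14, adjusted p = 2.08e-09). *MXD1*, which competes with MYC for the partner MAX and represses its targets, went from 9.98, 10.3 and 11.8 CPM to 67.3, 65.8 and 57.9 CPM (log2 2.57 ± 0.16, adjusted p = 4.05e-09). Of the 10 tested members 6 rose and 2 fell, among the latter *MLX*, the partner of the glucose-sensing Mondo factors, from 55.0 to 59.1 CPM to 37.0 to 38.8 CPM (log2 -0.57 ± 0.06).

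Circadian clock genes also rose. The clock is a loop in which CLOCK and its partner BMAL1 drive repressors of themselves. Of 17 tested clock genes 11 rose and 1 fell (median log2 0.81). *ARNTL*, which encodes BMAL1, went from 10.5, 9.46 and 10.4 CPM to 36.8, 33.9 and 32.3 CPM (log2 1.76 ± 0.09, adjusted p = 2.19e-10), and *BHLHE40*, a repressor in the same loop that other stresses also induce, from 53, 47.6 and 42.8 CPM to 230, 194 and 155 CPM (log2 2.01 ± 0.16, adjusted p = 4.14e-08). The gene that fell was *DBP*, an output gene of the clock (2.92 to 3.55 CPM in DMSO, 1.17 to 1.62 CPM in NXP800, log2 -1.23 ± 0.22).

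**Figure D2:**
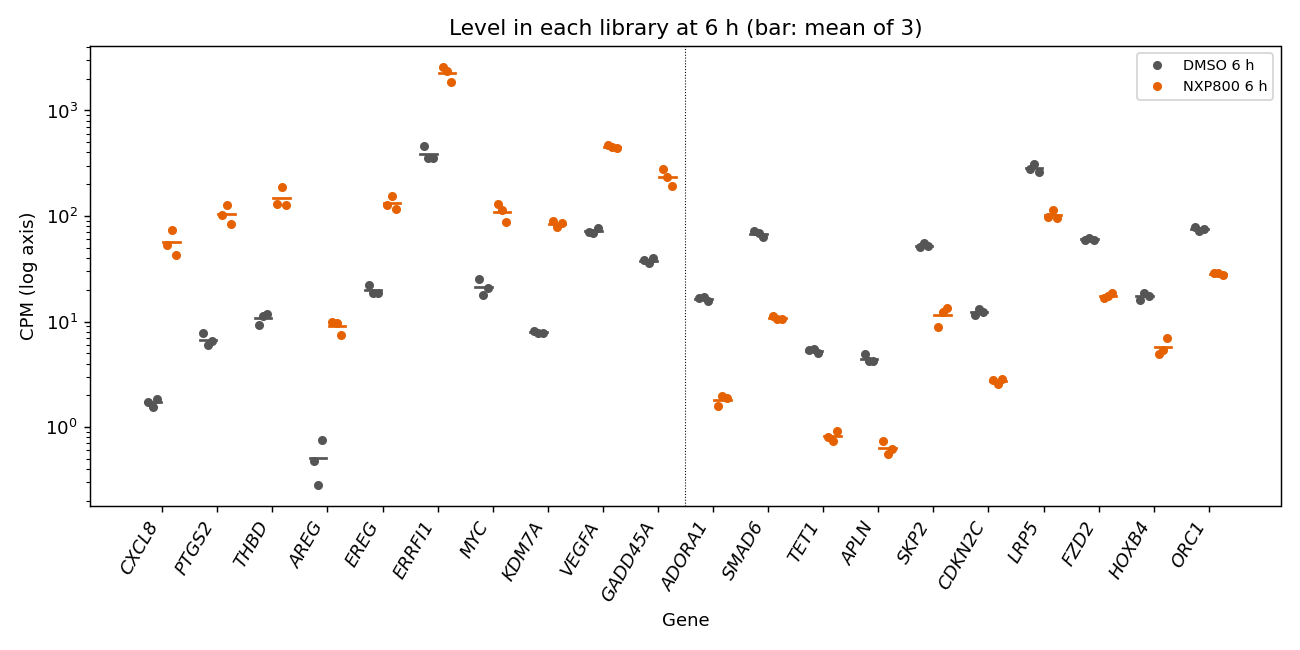
CPM on a log axis for 20 genes in each of the 6 libraries (x axis: gene), with 3 points and a bar at the mean for DMSO and for NXP800. The NXP800 points of the 10 genes on the left lie above all DMSO points, and those of the 10 genes on the right lie below them.

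In amino acid supply, many charging enzymes and some transporters rose. Most genes listed for the integrated stress response itself rose. Of 28 tested ATF4 targets 25 were higher, 1 was over 2-fold lower and 2 were not called (median log2 2.15). Of 20 tested cytosolic aminoacyl-tRNA synthetases, which load amino acids onto tRNA, 13 rose and 1 fell, or 3 fell with the replicate block (median log2 0.49). *SARS1*, for serine, went from 222, 231 and 193 CPM to 721, 694 and 655 CPM (log2 1.68 ± 0.10, adjusted p = 1.41e-09), and *WARS1*, for tryptophan, from 239 to 286 CPM to 595 to 682 CPM (log2 1.30 ± 0.12). The enzyme that fell without the block was *QARS1*, for glutamine, from 194 to 212 CPM to 155 to 165 CPM (log2 -0.34 ± 0.06). Of 21 tested genes of serine, glycine, folate, proline and asparagine synthesis 13 rose and 3 fell (median log2 0.49). *ASNS*, asparagine synthetase, rose from a low level (0.253 to 0.662 CPM to 3.18 to 4.36 CPM, log2 2.82 ± 0.28), but 49.3% of its exon bases overlap another gene on the same strand, so that its counts may be incomplete. *ALDH1L2*, an enzyme of mitochondrial folate metabolism, went from 11.1 to 14.9 CPM to 40.4 to 49.5 CPM (log2 1.69 ± 0.21).

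Amino acid transporters split. Of 22 tested, 11 rose and 7 fell (median log2 0.22, or 0.356 with the replicate block and offsets for GC and length). *SLC6A9*, a glycine transporter, went from 7.10, 7.25 and 5.92 CPM to 39.5, 35.7 and 37.3 CPM (log2 2.47 ± 0.13, adjusted p = 5.91e-10), and *SLC1A4*, for alanine, serine and cysteine, from 27.5 to 31.0 CPM to 85.9 to 88.3 CPM (log2 1.57 ± 0.11). In the other direction, *SLC7A8*, a carrier of large neutral amino acids, fell from 8.57 to 10.6 CPM to 2.76 to 3.24 CPM (log2 -1.70 ± 0.18), and *SLC1A3*, a glutamate transporter, from 1.34 to 1.80 CPM to 0.551 to 0.614 CPM (log2 -1.44 ± 0.28). The promoters of *AARS1*, the alanyl-tRNA synthetase (306 to 377 CPM in DMSO, 744 to 872 CPM in NXP800, log2 1.21 ± 0.09), and *GOT1*, which makes aspartate in the cytosol (94.5 to 105 CPM in DMSO, 306 to 344 CPM in NXP800, log2 1.67 ± 0.11), are shown for TTGCATCA, the reverse complement of the ATF4 and CEBP motif, in capitals 187 and 198 bases before the start. Both genes were picked for the motif with their values known, and their printed stretches end short of the start. The window of *SLC1A3*, which fell, also holds this motif. Those of *SLC6A9*, *SLC1A4*, *SARS1*, *WARS1* and *ASNS*, which rose, hold none of the 11 motifs searched.
AARS1, chr16:70289617-70289716, - strand: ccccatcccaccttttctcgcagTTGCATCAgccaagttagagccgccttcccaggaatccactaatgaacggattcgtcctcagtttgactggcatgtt
GOT1, chr10:99430745-99430844, - strand: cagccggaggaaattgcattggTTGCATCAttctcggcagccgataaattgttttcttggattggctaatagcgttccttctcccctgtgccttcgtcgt

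Brakes on growth and the machinery of self-digestion were higher in part. *DDIT4*, an inhibitor of the growth kinase complex mTORC1, went from 34.6, 46.3 and 35.9 CPM to 442, 453 and 416 CPM (log2 3.49 ± 0.19, adjusted p = 5.55e-10). Other members of its list of 22 tested mTORC1 brakes and energy sensors were split, with 8 higher and 7 lower in all (median log2 0.13), and *EIF4EBP2*, a repressor of cap-dependent translation, fell from 135 to 145 CPM to 85.6 to 92.0 CPM (log2 -0.66 ± 0.06). *CASTOR2*, an arginine sensor, was also lower (log2 -1.12 ± 0.30). The shares of this list, 36.4% higher and 31.8% lower, stand beside 25% and 27.8% over all tested genes. Of 39 tested autophagy genes 22 rose and 4 fell (median log2 0.32). *MAP1LC3B*, the membrane tag of autophagosomes, went from 103, 100 and 101 CPM to 423, 416 and 358 CPM (log2 1.98 ± 0.11, adjusted p = 5.55e-10), and *ULK1*, the kinase that starts autophagy, from 23.5, 20.5 and 27.4 CPM to 87.0, 74.4 and 76.1 CPM (log2 1.73 ± 0.10, adjusted p = 2.26e-09). Among the 4 that fell, *ATG16L1* went from 74.9 to 78.1 CPM to 59.8 to 63.2 CPM (log2 -0.33 ± 0.06). Of 48 tested subunits of the proton pump and lysosomal enzymes 6 rose and 20 fell (median log2 -0.20, or -0.132 with at least 10 counts in every library), and *LAMP3* (0.547 to 1.05 CPM to 3.78 to 4.65 CPM, log2 2.37 ± 0.22) and *NPC1*, a cholesterol exporter of the lysosome (log2 1.21 ± 0.11), were the largest rises in that list. *ARRDC4*, an arrestin-domain gene that lowers glucose uptake, rose from 0.851 to 1.49 CPM to 5.29 to 6.85 CPM (log2 2.40 ± 0.20).

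TGF-β, BMP, WNT and Notch signalling, pathways of development and of bone, had members that changed in each direction. Over all tested genes 25% were higher and 27.8% lower. *SMAD6*, an inhibitor of BMP signalling that BMP itself induces, fell from 71.8, 68.9 and 63.0 CPM to 11.3, 10.6 and 10.5 CPM (log2 -2.65 ± 0.12, adjusted p = 1.05e-10). *TGFBR3*, the co-receptor betaglycan, fell from 13.7, 16.5 and 15.1 CPM to 4.11, 5.51 and 4.64 CPM (log2 -1.67 ± 0.13, adjusted p = 2.45e-08). The largest rises in the same list were those of secreted proteins: *FST*, follistatin, which binds activin, from 2.84 to 3.28 CPM to 17.3 to 21.2 CPM (6.48-fold, SE 0.28 in log2) and *BMP6* from 7.13 to 8.87 CPM to 29.4 to 36.6 CPM (log2 2.06 ± 0.17). Other receptors and secreted proteins of the list changed in each direction, and in all 19 of 38 tested genes of TGF-β, BMP and activin signalling rose and 13 fell (median log2 0.17).

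The largest falls among WNT genes were those of a receptor and a co-receptor. *LRP5*, the co-receptor that supports bone mass, fell from 277, 310 and 261 CPM to 98.0, 113 and 96.3 CPM (log2 -1.47 ± 0.09, adjusted p = 3.7e-09), and the receptor *FZD2* from 59.7, 61.6 and 58.8 CPM to 16.7, 17.3 and 18.7 CPM (log2 -1.77 ± 0.11, adjusted p = 2.99e-09). Of 34 tested WNT genes 9 rose, none over 2-fold, and 12 fell, 6 of them over 2-fold (median log2 -0.16). The shares of 26.5% higher and 35.3% lower stand beside 25% and 27.8% over all tested genes. *DKK1*, a secreted inhibitor that binds LRP5, rose from 149 to 157 CPM to 206 to 288 CPM (log2 0.69 ± 0.15). In the Notch pathway the ligand *JAG1* rose (55.7 to 60.5 CPM to 147 to 182 CPM, log2 1.47 ± 0.09). *NRARP*, a feedback inhibitor that Notch induces, fell (mean 19.1 ± 1.44 CPM, SD, to 7.38 ± 0.952 CPM, log2 -1.37 ± 0.11). Other listed Notch targets, of the HEY and HES families, changed in each direction. Of 20 tested members 7 rose and 9 fell (35% and 45%).

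Secreted angiogenic factors both rose and fell. *VEGFA*, the main growth factor of blood vessels, went from 69.9, 69.0 and 76.2 CPM to 467, 452 and 445 CPM (log2 2.66 ± 0.14, adjusted p = 4.43e-10), and *ADM2*, a vasodilator peptide, from 3.58 to 3.96 CPM to 46.2 to 51.5 CPM (log2 3.67 ± 0.21). *APLN*, apelin, a peptide ligand of vessel cells, fell from 4.91, 4.22 and 4.19 CPM to 0.737, 0.551 and 0.614 CPM (log2 -2.80 ± 0.21, adjusted p = 1.98e-08), and *ANGPT1*, which stabilises vessels, fell from 2.58 to 4.15 CPM to 0.704 to 0.890 CPM (log2 -2.06 ± 0.31). Of 21 tested hypoxia and angiogenic genes 11 rose and 7 fell (median log2 0.30, or 0.145 with the replicate block and offsets for GC and length).

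Among genes of the entry into S phase, *SKP2*, which marks CDK inhibitors for destruction, fell from 50.5, 55.3 and 51.5 CPM to 8.84, 12.4 and 13.3 CPM (log2 -2.18 ± 0.12, adjusted p = 7.9e-10). *ORC1*, of the complex that marks replication origins, fell from 78.3, 72.7 and 75.9 CPM to 28.9, 28.9 and 27.6 CPM (log2 -1.41 ± 0.09, adjusted p = 4.54e-09), and *GINS1*, of the replicative helicase, from 95.5 to 108 CPM to 48.2 to 51.4 CPM (log2 -1.04 ± 0.08). Of 46 tested genes of origin licensing and the replication fork none rose, or 1 with the replicate block, and 32 fell (median log2 -0.38). Of 47 tested mitotic genes 5 rose and 21 fell (median log2 -0.16). *CENPI* (log2 -1.03 ± 0.10) and *SPC24* (log2 -0.99 ± 0.09), both of the kinetochore, fell, while *CENPA*, the centromeric histone, was higher (38.1 to 38.8 CPM to 47.0 to 51.2 CPM, log2 0.34 ± 0.06).

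Cyclins, CDK inhibitors and other genes of G1 changed in each direction. *GADD45A*, a stress-induced inhibitor of the cell cycle, went from 38.0, 35.6 and 39.7 CPM to 276, 232 and 192 CPM (log2 2.63 ± 0.13, adjusted p = 2.68e-10). *CCND2*, cyclin D2, rose from 0.182 to 0.315 CPM to 2.08 to 3.25 CPM (log2 3.50 ± 0.34). *CDKN2C*, the CDK4 and CDK6 inhibitor p18, fell from 11.6 to 13.1 CPM to 2.54 to 2.82 CPM (log2 -2.18 ± 0.14), with 20.4% of its exon bases under an antisense gene. Of 30 tested G1 genes 9 rose and 14 fell (median log2 -0.18). The shares of 30% higher and 46.7% lower stand beside 25% and 27.8% over all tested genes.

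Genes that promote cell death and genes that oppose it were among those that rose. *PMAIP1*, which encodes the BH3-only protein NOXA, went from 27.8, 24.8 and 25.5 CPM to 131, 126 and 121 CPM (log2 2.27 ± 0.08, adjusted p = 6.42e-12), and *BBC3*, which encodes PUMA, from 2.16 to 2.40 CPM to 10.8 to 12.9 CPM (log2 2.37 ± 0.14). *MCL1*, the protein that NOXA binds, rose from 773, 694 and 763 CPM to 1646, 1577 and 1499 CPM (log2 1.08 ± 0.07, adjusted p = 8.76e-09). *BCL2* fell from 5.41 to 5.61 CPM to 2.60 to 3.62 CPM (log2 -0.89 ± 0.16), as did *TNFRSF10D*, a decoy receptor for the death ligand TRAIL, from 54.7 to 69.1 CPM to 16.6 to 23.5 CPM (log2 -1.72 ± 0.12). Of 31 tested genes of the BCL2 family and death receptors 11 rose and 7 fell, and 13 were not called.

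The largest rises among histone-modifying enzymes were those of 2 demethylases. *KDM7A*, which removes methyl groups from H3K9 and H3K27, went from 8.11, 7.85 and 7.84 CPM to 90.5, 78.9 and 85 CPM (log2 3.42 ± 0.11, adjusted p = 3.04e-12), and *KDM6B*, an H3K27 demethylase, from 20.3, 15.7 and 21.5 CPM to 158, 131 and 115 CPM (log2 2.81 ± 0.14, adjusted p = 2.45e-10). *EHMT2*, the H3K9 methyltransferase G9a, fell from 77.8 to 79.9 CPM to 36 to 38.7 CPM (log2 -1.06 ± 0.10), and *HDAC7* fell from 65.3 to 70.6 CPM to 29.3 to 34.9 CPM (log2 -1.05 ± 0.08). The list of 46 tested enzymes was otherwise even, with 16 higher and 14 lower. *TET1*, which oxidises methylcytosine in DNA, fell from 5.39, 5.52 and 5.01 CPM to 0.798, 0.734 and 0.921 CPM (log2 -2.69 ± 0.15, adjusted p = 1.28e-09). Transcripts of replication-dependent histones, which mostly lack a poly(A) tail and are poorly captured by an mRNA library, were low. Of 34 tested 13 rose and 1 fell (median log2 0.47), with *H2AC15* at 0.122 to 0.253 CPM in DMSO and 0.428 to 0.829 CPM in NXP800 (log2 1.91 ± 0.37) and *H1-4* at 0.126 to 0.273 CPM and 0.675 to 0.952 CPM (log2 1.83 ± 0.37).

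HOX genes, which set position along the body axis, were the lowest of the lists (median log2 -0.76). Of 35 tested 23 fell, 12 of them over 2-fold, and 4 rose. *HOXB4* fell from 16.2, 18.7 and 17.3 CPM to 4.94, 5.35 and 6.94 CPM (log2 -1.60 ± 0.16, adjusted p = 5.64e-07), and the low gene *HOXA13* from 0.977 to 1.05 CPM to 0.153 to 0.276 CPM (log2 -2.08 ± 0.31). Against this, *HOXB9* of the same cluster as *HOXB4* rose from 15.1, 13.3 and 13.7 CPM to 46.8, 41.4 and 42.5 CPM (log2 1.63 ± 0.09, adjusted p = 5.55e-10), and *HOXB2* from 33.0 to 37.5 CPM to 43.7 to 49.7 CPM (log2 0.41 ± 0.10). By symbol family, none of 15 tested HOXA transcripts rose and 12 fell (median log2 -0.93).

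ZNF zinc finger genes, mostly repressors with KRAB domains, lay on the other side, with 245 of 432 tested higher and 39 lower (median log2 0.34). *ZNF697* rose from 44.5 to 53.2 CPM to 167 to 207 CPM (log2 1.92 ± 0.11) and *ZNF488* fell from 10.2 to 10.8 CPM to 2.33 to 2.64 CPM (log2 -2.07 ± 0.16). A trend with base composition ran beside both lists. From the fifth of genes with the lowest transcript GC content to the fifth with the highest, the median log2 fold change went from 0.099 to -0.19, with 1088 higher and 550 lower in the first and 473 higher and 1100 lower in the last. When the fit had a replicate block and offsets for transcript GC and length, the median was -0.58 for HOX genes and 0.30 for ZNF genes.

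**Figure D3:**
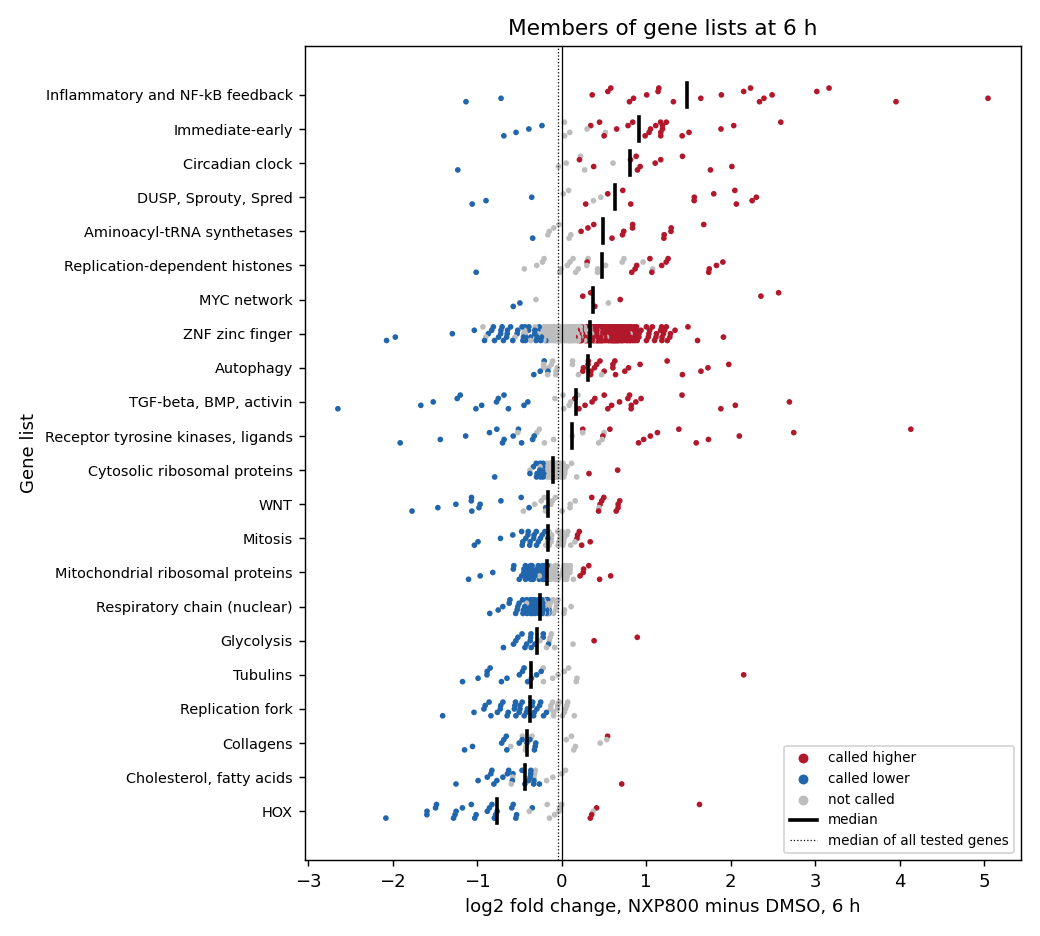
The log2 fold change at 6 h (x axis) of each tested member of 22 gene lists (y axis), coloured by call, with a bar at the list's median. Medians run from 1.49 for inflammatory genes to -0.76 for HOX genes, and the dotted line marks the median of all tested genes, -0.046.

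Metabolic lists were lower by small amounts in many members. Of 78 tested nuclear genes of the respiratory chain and ATP synthase none rose and 55 fell (median log2 -0.25), none over 2-fold. The lowest were *ATP5MC1*, of the ATP synthase ring (121 to 141 CPM in DMSO, 70.2 to 72.6 CPM in NXP800, log2 -0.85 ± 0.07), and *NDUFA2*, of complex I (log2 -0.75 ± 0.08). None of the 13 tested genes encoded by the mitochondrion itself was called, but with the replicate block 1 rose and 2 fell. Their median, -0.12 on the log2 scale, depended on single libraries, at 0.069 without replicate 3 and -0.267 without replicate 1 of DMSO, and at -0.515 without replicate 3 and -0.0422 without replicate 1 of NXP800. Of 77 tested mitochondrial ribosomal proteins 6 rose and 38 fell (median log2 -0.18), with *MRPL34* lowest (62.9 to 71.2 CPM to 29.3 to 31.6 CPM, log2 -1.10 ± 0.09). Glycolysis and pentose phosphate genes had 2 of 24 higher and 15 lower (median log2 -0.29). *PGAM1* (526 to 584 CPM to 332 to 361 CPM, log2 -0.69 ± 0.07) and *LDHA*, lactate dehydrogenase (1497 to 1638 CPM to 1042 to 1078 CPM, log2 -0.57 ± 0.08), fell, while *HK2*, the inducible hexokinase, rose from 44 to 51.2 CPM to 87.8 to 90.7 CPM (log2 0.89 ± 0.08). Of 31 tested genes of cholesterol and fatty acid synthesis 1 rose and 21 fell (median log2 -0.44). *ELOVL6*, which elongates fatty acids, fell from 41.8, 49.2 and 41.9 CPM to 20.7, 22.6 and 23.6 CPM (log2 -0.99 ± 0.09).

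Cytosolic ribosomal protein genes moved little at 6 h. Of 83 tested 2 rose and 15 fell, against 25 lower with the replicate block and 37 with the block and offsets for GC content and length (median log2 -0.11, or -0.0515 without replicate 2 of DMSO and -0.0691 without replicate 3 of NXP800). *RPS26* fell from 231 to 273 CPM to 143 to 148 CPM (log2 -0.79 ± 0.07), and *RPL22L1*, a paralog of RPL22, rose from 35.2 to 35.9 CPM to 51.3 to 59.1 CPM (log2 0.66 ± 0.09).

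The largest shifts in number of reads were those of abundant genes with various roles. CPM is not scaled by length here, so these are shares of reads and not of molecules. After *ERRFI1* the largest gains were those of *AKAP12*, a scaffold of kinase signalling, from 435, 418 and 442 CPM to 1635, 1854 and 1494 CPM (log2 1.94 ± 0.11, adjusted p = 1.72e-09), of *MCL1*, of *PHLDA1*, from 330 to 339 CPM to 1017 to 1125 CPM (log2 1.69 ± 0.09), and of *TXNRD1*, thioredoxin reductase, from 668 to 836 CPM to 1251 to 1370 CPM (log2 0.83 ± 0.16). After the heat shock cognate *HSPA8* (4779 to 5065 CPM to 848 to 936 CPM), the largest losses were those of *ACTB*, β-actin, from 5576, 5608 and 5226 CPM to 3287, 3482 and 3119 CPM (log2 -0.73 ± 0.10, adjusted p = 1.86e-05), and *TUBB*, β-tubulin, from 3347, 3308 and 3448 CPM to 1535, 1651 and 1900 CPM (log2 -0.99 ± 0.10, adjusted p = 4.12e-07). *GAPDH* (mean 7103 to 5519 CPM, log2 -0.36 ± 0.10) and *ACTG1*, γ-actin (mean 6330 to 4816 CPM, log2 -0.39 ± 0.10), followed. *ACTB* and *GAPDH*, often used as reference genes, were thus both called lower in these libraries.

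**Figure D4:**
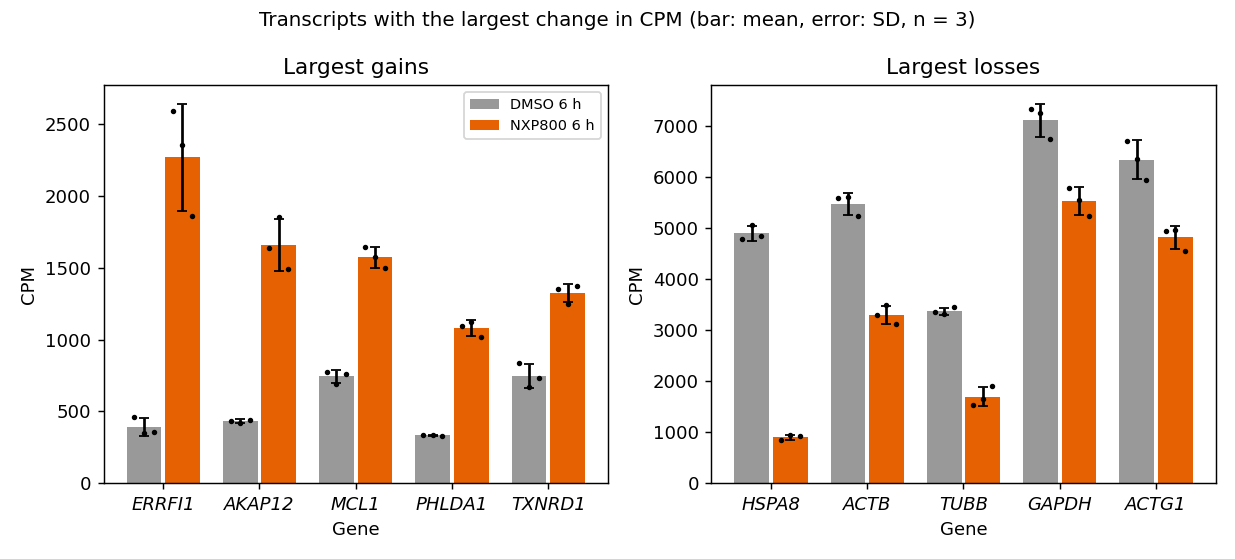
CPM (y axis, from 0) of the 5 genes with the largest gain and the 5 with the largest loss in mean CPM among called genes, with bars for the mean, error bars for the SD over 3 libraries and points for the libraries. The mean of *ERRFI1* goes from 390 to 2269 CPM and that of *HSPA8* from 4895 to 901 CPM, and in each gene the points of the groups do not overlap.

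Many tubulins fell. Of 23 tested tubulins and members of the γ-tubulin complex 14 fell and 1 rose (median log2 -0.36). The exception, *TUBE1*, is ε-tubulin of the centriole, which rose from 14.3, 16.3 and 14.3 CPM to 68.8, 68.7 and 62.8 CPM (log2 2.15 ± 0.12, adjusted p = 7.03e-10). The actin and focal adhesion list was even, with 8 of 25 higher and 9 lower (median log2 -0.12, or -0.055 to -0.0737 without replicate 1 or 2 of DMSO or replicate 1 or 3 of NXP800), where *FLNC*, the muscle filamin, rose from 35, 25.9 and 42.8 CPM to 157, 155 and 172 CPM (log2 2.22 ± 0.13, adjusted p = 1.59e-09) and *CNN2*, calponin 2, fell from 238 to 285 CPM to 106 to 119 CPM (log2 -1.21 ± 0.10). Of 25 tested collagen chains 1 rose and 13 fell, or 4 and 16 with the replicate block (median log2 -0.41). *COL15A1*, of basement membranes, fell from 6.41 to 8.64 CPM to 2.58 to 4.01 CPM (log2 -1.15 ± 0.17), *COL8A1* was lower (log2 -1.06 ± 0.29), and *COL12A1* rose from 16.6 to 26.9 CPM to 30.8 to 38.0 CPM (log2 0.54 ± 0.16).

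Several of the largest falls belonged to no list. *ADORA1*, the adenosine A1 receptor, fell from 16.7, 17 and 15.6 CPM to 1.57, 1.96 and 1.90 CPM (log2 -3.18 ± 0.17, adjusted p = 5.91e-10). *PIK3C2B*, a class II phosphoinositide 3-kinase, fell from 5.70, 5.42 and 4.59 CPM to 0.829, 0.612 and 0.983 CPM (log2 -2.69 ± 0.19, adjusted p = 9.46e-09). The RAS-like GTPase gene *RASL10A* (log2 -2.55 ± 0.21), the neuronal membrane gene *SLITRK5* (log2 -2.39 ± 0.18) and *CHST6*, a sulfotransferase of keratan sulfate (log2 -2.38 ± 0.19), each fell to between 0.614 and 2.86 CPM, and none of their libraries overlapped between groups.

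A few genes were close to silent in a group. *KLHDC7B* had 2 counts in each DMSO library and 145, 148 and 180 in the NXP800 libraries, *TAC1*, the precursor of substance P, had 3, 0 and 1 against 62, 56 and 68, and the metalloproteinase *MMP10* had 1 in each against 38, 39 and 37. In reverse, *VASH2*, a tubulin carboxypeptidase, had 30, 25 and 18 counts in DMSO and 3, 1 and 1 in NXP800, and *TMEM37* had 25, 21 and 24 against 0, 1 and 1. All 5 genes were called, and no fold is given because a group of each had at most 3 counts per library.

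Among lncRNA genes calls were more often higher than lower. Of 2139 tested lncRNA genes 487 rose (22.8%) and 256 fell (12%), and of 95 snoRNA genes 1 rose and 9 fell, whereas of 13082 protein-coding genes 3362 rose (25.7%) and 4065 fell (31.1%). Of 23 tested host transcripts of snoRNAs 11 rose and 5 fell (median log2 0.34). *SNHG8* rose from 48.9, 51.4 and 49.4 CPM to 172, 144 and 142 CPM (log2 1.61 ± 0.08, adjusted p = 5e-10) and *EPB41L4A-AS1* from 26.5 to 31.0 CPM to 67.9 to 85.8 CPM (log2 1.37 ± 0.12), with 39.6% and 54.3% of their exon bases shared with other genes on either strand. The highest of the LINC transcripts was *LINC02806*, at 4.63, 6.90 and 3.92 CPM in DMSO and 52.1, 52.7 and 51.7 CPM in NXP800 (log2 3.34 ± 0.18, adjusted p = 6.29e-10), of whose exon bases 33.2% overlap another gene on the same strand.

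The 24 h libraries, with their own DMSO controls, show which early changes were still present. At 24 h 27.5% of the tested genes were higher and 28.6% lower, and the responses at 24 h and 6 h differed at an adjusted p below 0.05 for 25.8% of them. Of the 962 genes over 2-fold higher at 6 h, 711 were also called higher at 24 h (73.9%), 236 were not called and 15 were called lower. Of the 835 over 2-fold lower, 597 were called lower at 24 h (71.5%), 222 were not called and 16 were called higher. Where the responses of these genes differed by test, the 24 h response was the smaller in 286 of the higher genes and 260 of the lower. It was the larger in 41 and 79. These genes were chosen by their size at 6 h, and the test reuses the same 6 h values. That choice by itself favours a smaller response at 24 h, so these counts do not measure how far the response faded. The 24 h libraries had fewer reads on no annotated gene, 2.73 to 3.67% against 6.66 to 8.14% at 6 h, and their part in these differences was not tested.

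Several early rises were much smaller at 24 h. At 24 h the log2 fold change of *AREG* was 0.43 (difference from 6 h -3.71, adjusted p = 0.000348), that of *CXCL8* 1.79 (difference -3.26, adjusted p = 0.00376), that of *EREG* -0.19 (difference -2.93, adjusted p = 1.98e-05) and that of *FST* -0.32 (difference -3.01, adjusted p = 0.000116). The list of inflammatory genes had a median of 0.071 at 24 h and the immediate-early genes of 0.26, against 0.55 for clock genes and 0.81 for dual-specificity phosphatases and Sprouty genes. *STC1*, the secreted glycoprotein stanniocalcin 1, turned from 1.40 at 6 h to -1.47 at 24 h, and *NPTXR*, a neuronal pentraxin receptor, went from -1.40 to 0.58 (adjusted p of the differences 3.75e-06 and 2.89e-05). HOX genes had a median of -0.12 at 24 h. Mitotic genes went from -0.16 to -1.16 and replication fork genes from -0.38 to -0.81.

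**Figure D5:**
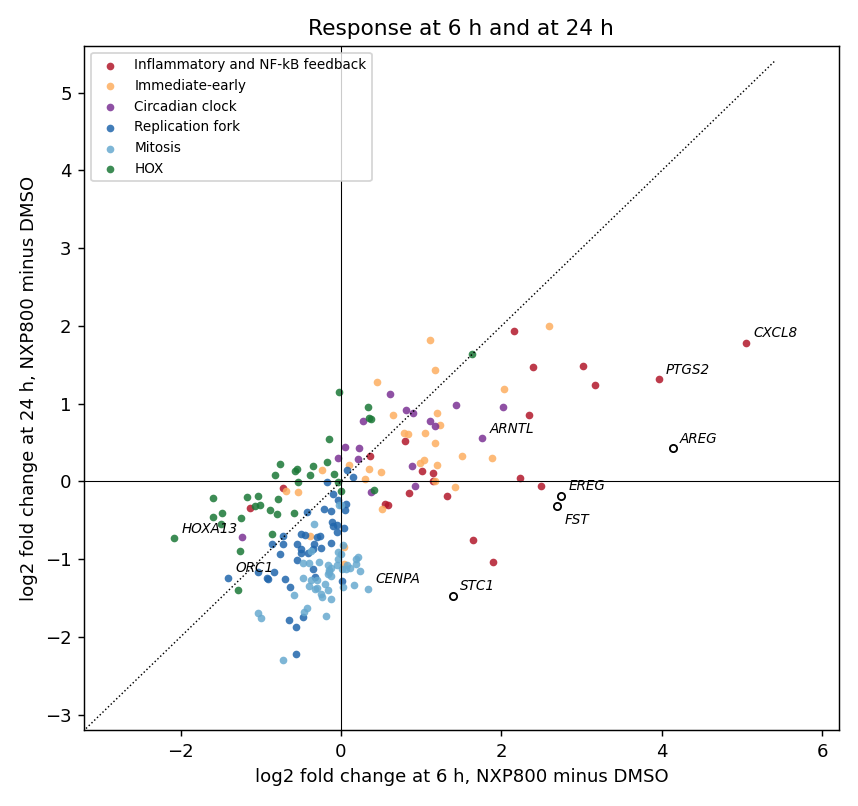
The log2 fold change of NXP800 over DMSO at 6 h (x axis) and at 24 h (y axis) for members of 6 gene lists, with *AREG*, *EREG*, *FST* and *STC1* as open circles and a dotted line at equality. Inflammatory and immediate-early genes lie mostly to the right of the line, and mitotic genes lie near 0 at 6 h with a median of -1.16 at 24 h.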

How the data were processed

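RNA of 12 libraries was made into strand-specific mRNA libraries and sequenced as paired reads of 100 bases. Per the labels the authors trimmed with fastp 0.20.1, aligned with STAR 2.7.5a to GRCh38.p14 and counted with HTSeq 0.12.4. The authors deposited counts of reads for each gene symbol, with no normalization, and the strand setting and counting mode are not given in the sources used here. Summary lines of the counter, such as reads on no gene (6.66 to 8.14% at 6 h), entered neither the library totals nor any test. Counts were fitted in R 4.3.3 with edgeR 4.0.16, in a model of the 4 groups with TMM scaling, filterByExpr and the quasi-likelihood test. The SE was derived from this test, as the absolute log2 fold change over the square root of its F statistic. CPM uses the TMM library sizes, except for the cell type markers, whose CPM uses the total gene counts. The 55 gene lists and the genes to name were chosen with earlier results of these data known, and the text gives the counts of the lists, some of them in the closing section, and names only a part of the genes that the naming rule gives: the largest changes in log2 and CPM, near-silent genes, up to 2 rises and 2 falls per list and the largest differences from 24 h. No test was run on a list; some genes are not reported here. The dose comes from the study's methods.

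Replicate numbers in the titles were checked for pairing. After removal of group means, same-numbered libraries of DMSO and NXP800 at 6 h correlated with r between 0.404 and 0.530 across 9835 genes and differently numbered ones with -0.441 to -0.0182, so a replicate block was added as an alternative. Replicates differed by more than sampling noise (chi-square per degree of freedom 7.36 or more). On data simulated for the 6 h comparison with 200 genes changed 2-fold, edgeR recovered 180 with 3 other calls. The simulation kept all other genes equal at 6 h and drew each library independently. It therefore does not measure error in data like these, where 52.8% of genes were called and same-numbered libraries deviate together. Exon overlaps are from GENCODE v44, whose models can differ from those counted. Alternatives were other scalings, filters, libraries and thresholds and DESeq2 1.42.0.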

Additional observations from a re-analysis of the deposited data

Results flagged for a closer look

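The responses at 6 h and at 24 h, each against its own DMSO libraries, were compared for the genes named in the text, and those whose log2 responses differed by over 1 at an adjusted p below 0.05 in edgeR's test of the difference are given here with the 6 h response subtracted from the 24 h one. Over all tested genes, 25.8% had a called difference of any size. The named genes were chosen in part for their size at 6 h or for this difference.

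Genes that rose at 6 h and had a lower response at 24 h were *AREG* -3.71, *CXCL8* -3.26, *FST* -3.01, *EREG* -2.93, *PTGS2* -2.64, *CXCL2* -2.20, *IL11* -1.54, *ULK1* -1.50, *DUSP1* -1.34, *ARNTL* -1.21, *DDIT4* -1.08, *BHLHE40* -1.06 and *PMAIP1* -1.04. *AREG*, *EREG*, *FST* and *CXCL2* were not called at 24 h. *STC1* (-2.87) and *CENPA* (-1.72) were called higher at 6 h and lower at 24 h. Genes that fell at 6 h and lay further down at 24 h were *COL15A1* -1.91, *ANGPT1* -1.63, *CDKN2C* -1.28, *COL8A1* -1.24 and *RASL10A* -1.02.

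Genes that fell at 6 h and had a less negative response at 24 h were *BCL2* 1.02, *HOXB4* 1.13, *HSPA8* 1.22, *HOXA13* 1.35, *PIK3C2B* 1.45, *CHST6* 1.56 and *TET1* 1.78. *NPTXR* (1.98) and *TMTC2* (2.11) were called lower at 6 h and higher at 24 h. *LAMP3* (1.34) rose at 6 h and stood higher still at 24 h. The fitted differences of *VASH2* (2.20) and *KLHDC7B* (3.13) rest on at most 3 counts per library in a group and depend on the prior count. The 24 h libraries had fewer reads on no annotated gene (2.73 to 3.67%) than those of 6 h (6.66 to 8.14%), and the part of this in the differences was not tested.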

How the results depend on the processing

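The count of called genes, 8435, stayed within 1.5 times under each alternative run, from 6482 at an adjusted p below 0.01 to 10021 with the replicate block and offsets for GC content and length. It was 7879 with DESeq2, and leaving out each of the 6 libraries in turn gave 7417 to 7918. The replicate block alone gave 9953 calls, 8429 of them shared, and the list counts it moved by over 1.5 times are given with it beside each list. Of the 1797 genes over 2-fold, 1148 were called with at least 10 counts in every library, 630 higher and 518 lower, a filter that removes genes near 0 in a group, and a test against 2-fold itself (glmTreat) called 582, 375 higher and 207 lower. The median of all genes moved by at most 0.0345 on the log2 scale, and the share of calls that were higher lay between 46.2 and 51.1%. Of the genes named in the text, only *CXCL3* lost its call under an alternative that tested it, and none turned its direction. A gene that an alternative left untested, such as one with under 10 counts in a library, was not counted as a lost call. Of 35 list medians, 19 were above 0, and 18 to 20 were so under the alternatives. Depth limits what can be said of genes under about 1 CPM, and 1 cell line at 1 dose was measured.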

Other observations

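Lists not described above gave these counts at 6 h, beside 25% higher and 27.8% lower over all tested genes. Targets of p53 had 12 of 26 members higher, 7 of them over 2-fold, and 6 lower. That list is not separate from the integrated stress response, since its largest rise (log2 3.53) is also among the listed ATF4 targets. Homologous recombination, Fanconi and mismatch repair genes had 4 of 34 higher and 16 lower, and proteasome subunits 2 of 37 higher and 15 lower, none over 2-fold in either list. Factors of nonsense-mediated and other mRNA decay had 13 of 31 higher and 5 lower, and genes of ribosome biogenesis and RNA polymerase I had 11 of 40 higher and 8 lower. SR proteins and hnRNPs had 6 of 36 higher and 10 lower, or 9 and 16 with the replicate block.

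Glutathione genes and NRF2 targets had 8 of 22 higher and 4 lower, or 9 and 10 with the block. Among YAP and TEAD factors and targets 8 of 24 were higher and 4 lower, or 12 and 8 with the block. MHC class I and antigen presentation genes had 1 of 16 higher and 6 lower, or 1 and 10 with the block. Metalloproteinases and their inhibitors had 7 of 40 higher and 14 lower, or 11 and 16 with the block, and integrins and laminins 7 of 35 in each direction, or 9 higher and 13 lower with the block. Osteoblast lineage and bone matrix genes had 2 of 10 in each direction, or 3 higher and 4 lower with the block.

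Metallothioneins and zinc transporters had 7 of 27 higher and 11 lower, insulin receptor substrates, FOXO genes and PI3K brakes 6 of 19 higher and 8 lower, and arrestin-domain and glucose-sensing genes 6 of 14 in each direction. Of the LINC transcripts 66 of 214 were higher and 30 lower, and of antisense and divergent transcripts 183 of 772 were higher and 84 lower. Mesenchymal markers had 3 of 11 tested members higher and 6 lower, and of the 4 tested markers of other cell types 2 were lower.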
